A study of Arabidopsis thaliana with 4 samples.

Results

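The genes described here are the chloroplast-encoded genes of photosynthesis, that is the genes of the chloroplast genome whose symbol begins with psa (photosystem I), psb (photosystem II), pet (cytochrome b6f), atp (ATP synthase), ndh (the NDH complex) or rbc (Rubisco). They were picked by location and symbol, with 1 probe set for each gene, and this choice was made with earlier results of these data known. They came to 43 of the 13356 genes that the platform annotation pairs singly with a probe set. By complex there were 5, 15, 6, 6, 10 and 1 of them, in that order. RNA came from whole Arabidopsis thaliana plants that had grown hydroponically, under 16 h of light, to an age of 5 weeks. It was measured on Affymetrix ATH1 arrays, where each transcript is read by its own group of short oligonucleotides, a probe set. The groups were ago4-1 (2 arrays), a mutant of the Argonaute gene AGO4, and wild type (2 arrays), of the line the labels call La-er. The labels give the arrays of a genotype as biological replicates, and they do not say how many plants went into each RNA. With 2 arrays a genotype, their number limits the precision of every value below.

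The chloroplast keeps a small genome that encodes the core subunits of the photosynthetic complexes, while the nucleus encodes their remaining subunits and most of the antenna. In the thylakoid membrane, photosystem II takes electrons from water, cytochrome b6f passes them on, photosystem I lifts them to ferredoxin, and the ATP synthase uses the proton gradient that results. The NDH complex returns electrons from ferredoxin to the plastoquinone pool, and Rubisco fixes carbon dioxide. Most chloroplast genes are transcribed in polycistronic units and then cut and trimmed, so genes of 1 unit can share a transcript and are not independent of each other. AGO4 itself acts in the nucleus, where it is loaded with small interfering RNAs and guides the methylation of DNA.

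The array summaries overlapped between the genotypes. The median signal was 151 and 164 on the ago4-1 arrays and 162.1 and 165.1 on the wild-type arrays. GAPDH control probe sets, which report RNA integrity, gave 3'/5' ratios of 1.41 and 1.74 in ago4-1 and 1.56 and 2.05 in wild type. The actin control gave 8.78 and 7.99 in ago4-1 and 8.25 and 11.3 in wild type, so its signal was much weaker at the 5' end, most of all on wild type replicate 2. Green tissue was present in every RNA: the leaf markers RCA (Rubisco activase) and LHCB4.1 (an antenna protein) were bright on every array. They were the 2 of 6 leaf markers that the annotation used matched to a probe set. Their signals summed to 58367 and 60974 in ago4-1 and to 61862 and 62802 in wild type. This sum too was lower on both ago4-1 arrays. The 4 of 9 pollen markers matched in this way summed to 1160 and 1106 in ago4-1 and to 28.2 and 29.1 in wild type. The 3 of 4 root markers matched summed to 409.7 and 181 in ago4-1 and to 396 and 219 in wild type. They did not go 1 way. PYK10 was at 351 and 137 in ago4-1, against 290 and 114 in wild type. EXPA18 was at 49.5 and 6.13 in ago4-1, against 98.1 and 76.9 in wild type, and EXPA7 overlapped between the genotypes. Of these markers 0 were listed at 0, but a listed value does not show that a transcript was detected. All values of EXPA7 and all wild-type values of the pollen markers were under 44, the level of the low-signal filter. In whole plants, fewer green cells and less chloroplast RNA in each cell cannot be told apart. The part of the organ make-up in the differences below was not tested.

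Most of the chloroplast-encoded photosynthesis genes had less signal in ago4-1, by amounts that were small for each gene. Of the 43 genes, 42 passed the filter on low signal and were tested. Of these, 40 had a log2 difference (ago4-1 minus wild type, on log2(signal + 16)) below 0, where 54.3% of all 15922 tested probe sets did. Their median was -0.33, which is 20.4% less of signal + 16, with quartiles of -0.47 and -0.18, beside a median of -0.035 over all tested probe sets. Both ago4-1 arrays lay below both wild-type arrays for 33 of the 42, where 29.2% of all tested probe sets did so. With the arrays centred on their medians this held for 23 of the 42, beside 24.6% of all tested probe sets.

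For single genes the evidence was weak. By limma's moderated test, adjusted over all tested probe sets with the Benjamini-Hochberg method, 0 of the 42 genes passed the threshold of 0.05, where 4.06% of all tested probe sets passed, 1.92% with less and 2.14% with more signal in ago4-1. Their adjusted p ran from 0.0632 (psaB) to 0.928 (ndhE). At an unadjusted p under 0.05 there were 20 of the 42, all of them with less signal in ago4-1, where 11.4% of all tested probe sets were so. The count was 12 when the arrays were centred on their medians (28.6% of the genes, beside 9.18% of all probe sets) and 3 without wild type replicate 2 (7.14% beside 7.86%). It was 13 with no variance trend in limma (31% beside 10.3%) and 22 with quantile normalization (52.4% beside 10.8%). With 1 array left out, the median over the genes ran from -0.40 to -0.26.

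**Figure D1:**
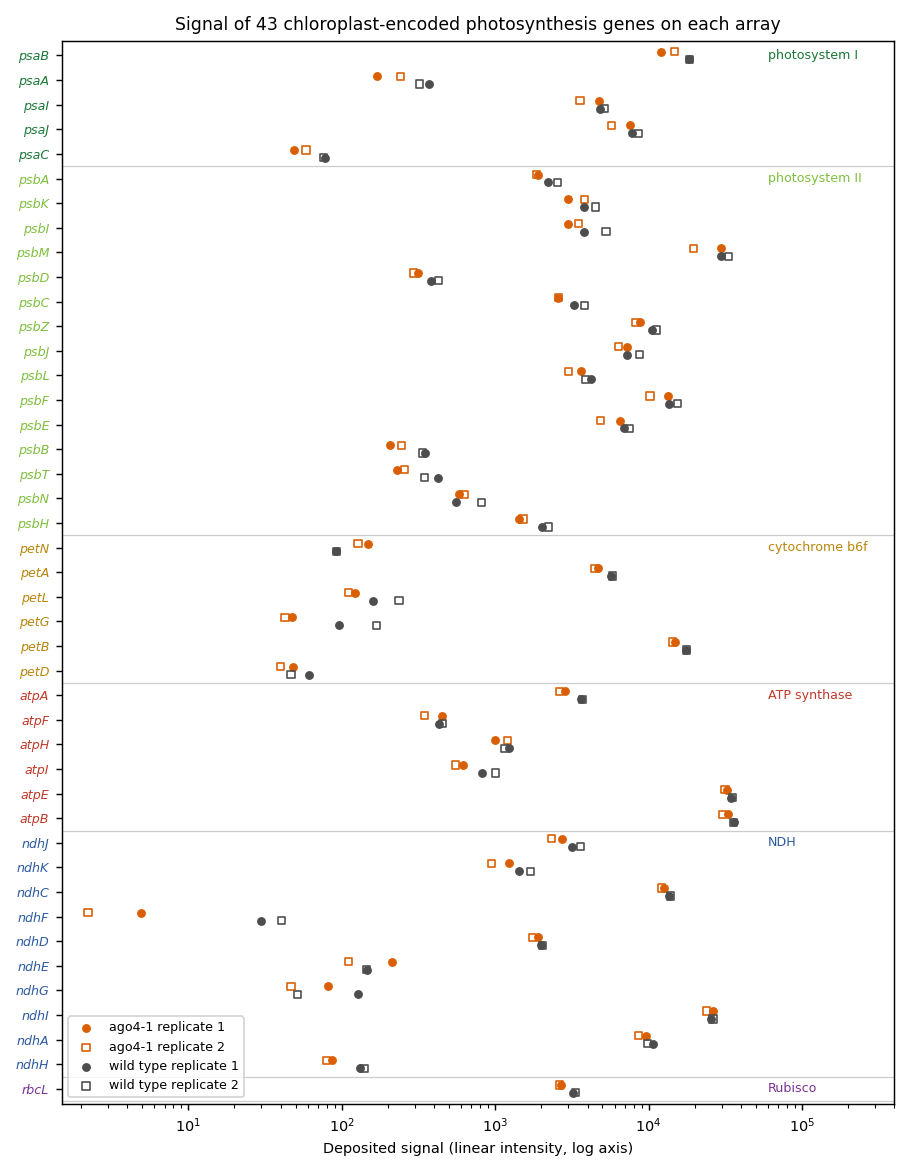
Deposited signal (linear intensity on a log axis) of the 43 genes on each of the 4 arrays, grouped by complex, with ago4-1 in orange above wild type in grey, filled circles for replicate 1 and open squares for replicate 2. For 33 of the 42 tested genes both orange points lie left of both grey points, where 29.2% of all tested probe sets were so. The gene petN lies the other way. Levels of different genes are not comparable, since each probe set has its own response.

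Photosystem I had the largest median difference of the groups with several genes, -0.42. Its 5 genes all had both ago4-1 arrays below both wild-type arrays, where 29.2% of all tested probe sets did. That median is the value of psaC, a dim gene. On log2(signal + 64) the median was -0.30, beside -0.35 for photosystem II, so this rank depended on the setting. The reaction centre of photosystem I is a pair of large proteins encoded by psaA and psaB. The signal of psaA was 169 and 240.2 in ago4-1 (205 ± 50.4, SD, n = 2), against 371 and 320.5 in wild type (346 ± 35.4, SD, n = 2). The log2 difference of psaA was -0.73 (SE 0.22, 95% interval -1.23 to -0.23, limma adjusted p = 0.107), which is 39.6% less of signal + 16. Its partner psaB, which lies next to it in the same transcription unit, stood at 12018 and 14800.2 in ago4-1, against 18238 and 18495 in wild type. The log2 difference of psaB was -0.46 (SE 0.11, limma adjusted p = 0.0632), the smallest adjusted p among the 42 genes. For both genes replicate 1 was the lower of the ago4-1 arrays.

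The other genes of photosystem I encode psaC, which holds the terminal iron-sulfur clusters, and the small membrane subunits psaI and psaJ. The signal of psaC was low, at 49 and 58.4 in ago4-1, against 77.8 and 75.8 in wild type, and its interval was wide (-0.42, 95% interval -1.18 to 0.35). In psaI the signals were 4716 and 3569 in ago4-1 (4143 ± 811, SD, n = 2), against 4791 and 5139.6 in wild type (4965 ± 247, SD, n = 2). Replicate 1 of ago4-1 was close to the wild-type arrays there, and the log2 difference of -0.27 (SE 0.15, limma adjusted p = 0.344) rested mainly on replicate 2. The same was seen for psaJ, at 7614 and 5736 in ago4-1, against 7776 and 8545 in wild type. So the reaction-centre genes had their lower ago4-1 value in replicate 1, and the small-subunit genes in replicate 2.

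Photosystem II was covered by 15 genes, all with a log2 difference below 0. Their median was -0.36 and their range -0.62 to -0.14. Both ago4-1 arrays lay below both wild-type arrays for 13 of the 15, where 29.2% of all tested probe sets did so. The reaction centre is formed by D1, encoded by psbA, and D2, encoded by psbD. The signal of psbA was 1908 and 1863 in ago4-1 (1885 ± 32, SD, n = 2), against 2214 and 2560.4 in wild type (2387 ± 245, SD, n = 2). That is a log2 difference of -0.33 (SE 0.14, 95% interval -0.64 to -0.027, limma adjusted p = 0.211). For psbD the signals were 315 and 295 in ago4-1, against 379 and 429 in wild type. In both genes the ago4-1 arrays were close to each other and below both wild-type arrays.

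The inner antenna proteins that surround this reaction centre are encoded by psbB and psbC. The signals of psbC were 2550.1 and 2579 in ago4-1, against 3287 and 3834 in wild type, a log2 difference of -0.47 (SE 0.13). Those of psbB were 207 and 247 in ago4-1, against 351 and 334 in wild type, a log2 difference of -0.57 (SE 0.19). Both genes thus had both ago4-1 arrays below both wild-type arrays, as the reaction-centre genes did. The cytochrome b559 subunits psbE and psbF had differences of -0.36 and -0.31. For psbF, however, ago4-1 replicate 1 stood at 13474, just under the 13676 and 15431 of the wild-type arrays, and replicate 2 at 10205.

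The small subunits of photosystem II ran from -0.62 to -0.21. The largest difference was that of psbT, at 230 and 257 in ago4-1 (243 ± 19.4, SD, n = 2), against 426 and 345 in wild type (385 ± 57.4, SD, n = 2). The log2 difference of psbT was -0.62 (SE 0.19, 95% interval -1.06 to -0.19, limma adjusted p = 0.114). Its neighbour psbH stood at 1431 and 1519 in ago4-1, against 2006 and 2214 in wild type, a log2 difference of -0.51 (SE 0.14, limma adjusted p = 0.0765). Between these 2 genes, on the opposite strand, lies psbN, which encodes an assembly factor rather than a subunit. The signals of psbN were 586 and 634 in ago4-1 (610 ± 34, SD, n = 2), against 552 and 818 in wild type (685 ± 188, SD, n = 2), so the genotypes overlapped (log2 difference -0.14, SE 0.2, 95% interval -0.60 to 0.33, limma adjusted p = 0.748). That interval covers the differences of psbH and 0 alike. The brightest gene of the complex was psbM, at 29762 and 19730 in ago4-1, against 29795 and 33074 in wild type. Its replicate 1 of ago4-1 was as high as wild type replicate 1, and its log2 difference of -0.37 moved to -0.077 without ago4-1 replicate 2. The other small-subunit genes psbI, psbK, psbL, psbJ and psbZ lay between -0.47 (psbI) and -0.21 (psbJ), and of these psbJ alone overlapped between the genotypes. For psbK the genotypes were barely apart, with ago4-1 replicate 2 at 3813 and wild type replicate 1 at 3815.

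**Figure D2:**
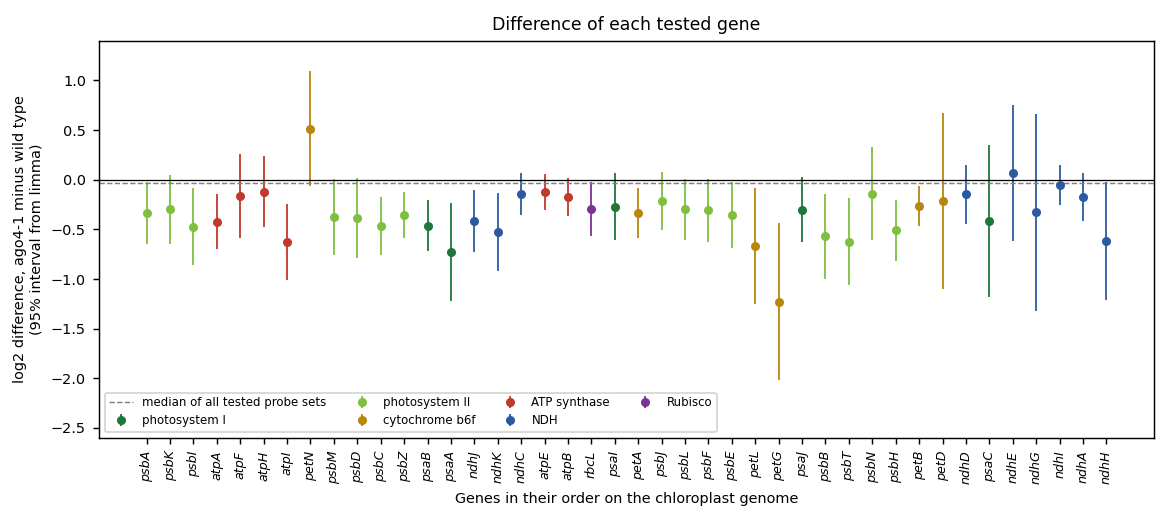
Log2 difference (ago4-1 minus wild type) of the 42 tested genes with its 95% interval from limma, in their order on the chloroplast genome and coloured by complex; the dashed line is the median of all tested probe sets, -0.035. All but petN and ndhE lie below 0, and the widest intervals are those of the dim genes such as petD and ndhG.

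The cytochrome b6f genes held both the most negative and the most positive difference of all 42 genes. The large subunits gave close values: petA (cytochrome f) stood at 4703 and 4419 in ago4-1, against 5675 and 5812 in wild type, and petB (cytochrome b6) at 14926 and 14371 in ago4-1, against 17484 and 17713 in wild type. Their log2 differences were -0.33 (SE 0.11) and -0.26 (SE 0.09), with limma adjusted p of 0.139 and 0.145. In both, the arrays of a genotype were close together and the genotypes were apart. The probe set of petD (subunit IV) was near the filter, at 48.5 and 39.8 in ago4-1, against 61 and 46.8 in wild type, and its interval reached from -1.10 to 0.68.

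The small subunits petG, petL and petN, which hold the complex together, were dim and differed from each other. The signal of petG was 47.7 and 42.7 in ago4-1 (45.2 ± 3.54, SD, n = 2), against 95.9 and 168 in wild type (132 ± 51, SD, n = 2). Its log2 difference was -1.23 (SE 0.35, 95% interval -2.02 to -0.44, limma adjusted p = 0.0901), and most of the spread lay between the wild-type arrays. Next to it in the same unit, petL stood at 123 and 110.4 in ago4-1, against 159 and 236 in wild type, a log2 difference of -0.67 (SE 0.26). In contrast petN, which lies elsewhere on the chromosome, was at 149 and 128 in ago4-1 (138 ± 14.7, SD, n = 2), against 91.3 and 92.3 in wild type (91.8 ± 0.728, SD, n = 2). The log2 difference of petN was 0.51 (SE 0.25, 95% interval -0.064 to 1.09, limma adjusted p = 0.3). It was the single gene of the 42 with both ago4-1 arrays above both wild-type arrays, where 23.2% of all tested probe sets were so.

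The ATP synthase genes had a median difference of -0.17, with 6 of 6 below 0, where 54.3% of all tested probe sets were. Both ago4-1 arrays lay below both wild-type arrays for 4 of 6, where 29.2% of all tested probe sets did so. The catalytic head contains the proteins of atpA, atpB and atpE. The 2 brightest of all 43 genes were atpB, at 33141 and 30491 in ago4-1, against 35917 and 35735 in wild type, and atpE, at 32532 and 31497 in ago4-1, against 34235 and 35431 in wild type. Their coding sequences overlap, and their log2 differences were -0.17 (SE 0.08) and -0.12 (SE 0.08). The signals of atpA were 2840 and 2635 in ago4-1, against 3639 and 3699 in wild type, a larger log2 difference of -0.42 (SE 0.12, limma adjusted p = 0.0934). Whether atpA and atpB differ from each other was not tested.

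The membrane part of the ATP synthase is made from atpF, atpH (the rotating ring) and atpI, which lie in 1 unit with atpA. The signal of atpI was 619 and 549 in ago4-1 (584 ± 49.3, SD, n = 2), against 822 and 1003 in wild type (912 ± 128, SD, n = 2). Its log2 difference was -0.63 (SE 0.17, 95% interval -1.01 to -0.24, limma adjusted p = 0.0817). In the middle of the unit the genotypes overlapped: atpH was at 993 and 1207 in ago4-1 (1100.4 ± 151, SD, n = 2), against 1233 and 1151 in wild type (1192 ± 57.6, SD, n = 2). The log2 difference of atpH was -0.12 (SE 0.16, 95% interval -0.47 to 0.24, limma adjusted p = 0.712), and that of atpF, at 448 and 346 in ago4-1, against 430.5 and 454 in wild type, was -0.16. Thus the outer genes of the unit, atpI and atpA, had larger differences than the inner ones, by up to 0.51 on the log2 scale, and the intervals of all 4 genes overlapped.

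The NDH complex was covered by 10 genes, of which 9 were tested. Their median was -0.17, with 8 of 9 below 0, where 54.3% of all tested probe sets were. Both ago4-1 arrays lay below both wild-type arrays for 6 of 9, where 29.2% of all tested probe sets did so. The genes ndhH, ndhI, ndhJ and ndhK encode the arm that faces the stroma. The signal of ndhH was 86 and 79.3 in ago4-1 (82.6 ± 4.74, SD, n = 2), against 131 and 139.6 in wild type (135 ± 6.25, SD, n = 2), a log2 difference of -0.62 (SE 0.26, 95% interval -1.21 to -0.027, limma adjusted p = 0.225). For ndhK the signals were 1224 and 950.5 in ago4-1, against 1430 and 1704 in wild type, and for ndhJ they were 2739 and 2337 in ago4-1, against 3181 and 3588 in wild type. Those 2 genes of 1 unit had differences of -0.53 and -0.41, and the genotypes did not overlap. The bright ndhI, at 26128 and 23886 in ago4-1, against 25358 and 26307 in wild type, had a difference of -0.048 (SE 0.09, 95% interval -0.25 to 0.15), and its genotypes overlapped.

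The membrane arm is encoded by ndhA to ndhG. Its brighter genes gave small differences, ndhC at -0.14, ndhD at -0.15 and ndhA at -0.17, each with both ago4-1 arrays below both wild-type arrays. The dim ndhE was at 213 and 110.1 in ago4-1 (161 ± 72.6, SD, n = 2), against 147 and 145 in wild type (146 ± 0.974, SD, n = 2). The ago4-1 arrays of ndhE lay on either side of wild type (log2 difference 0.068, SE 0.3, 95% interval -0.62 to 0.75, limma adjusted p = 0.928). For ndhG, at 81.7 and 46.7 in ago4-1, against 128 and 51.3 in wild type, the arrays of a genotype differed more than the genotypes. The gene that failed the filter was ndhF, at 4.91 and 2.22 in ago4-1, against 29.7 and 40.4 in wild type. With no filter its log2 difference was -1.38 (limma adjusted p = 0.139), and all 4 signals lay at the low end of the scale. The probe set of ndhB matches both copies of that gene in the inverted repeat, so ndhB was not among the 43. It was dim too, at 52 and 68.7 in ago4-1, against 45.4 and 45.2 in wild type (log2 difference 0.31, limma adjusted p = 0.694).

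Rubisco has 1 chloroplast gene, rbcL, which encodes the large subunit that carries the active site. The signal of rbcL was 2706 and 2617 in ago4-1 (2661 ± 62.9, SD, n = 2), against 3195 and 3331 in wild type (3263 ± 95.5, SD, n = 2). That is 18.3% less of signal + 16, a log2 difference of -0.29 (SE 0.12, 95% interval -0.57 to -0.019, limma adjusted p = 0.216). The genotypes did not overlap, and the difference was larger than the spread within either genotype, although it missed the threshold over all probe sets.

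By median, replicate 1 was the lower ago4-1 array in photosystem I, and replicate 2 was the lower in the other groups. Each gene was expressed relative to its mean over the 4 arrays, and the median over the genes of a complex was taken on each array. Photosystem I stood at -0.31 and -0.13 in ago4-1, against 0.22 and 0.22 in wild type. Photosystem II was at -0.15 and -0.22 in ago4-1, against 0.11 and 0.26 in wild type. Both photosystems were thus separated between genotypes by their array medians, with the spread on the ago4-1 side in photosystem I and on the wild-type side in photosystem II.

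As in photosystem II, replicate 2 was the lower ago4-1 array by median in NDH, cytochrome b6f and ATP synthase. NDH had -0.018 on ago4-1 replicate 1 and -0.32 on replicate 2, against 0.12 and 0.086 in wild type. Cytochrome b6f had -0.11 and -0.21 in ago4-1, against 0.14 and 0.16 in wild type, and ATP synthase -0.10 and -0.20 in ago4-1, against 0.10 and 0.10 in wild type. Replicate 2 was the lower of the ago4-1 arrays for 10 of 10 NDH genes, 6 of 6 cytochrome b6f genes and 5 of 6 ATP synthase genes, but for 8 of 15 genes of photosystem II and 2 of 5 of photosystem I. Over all tested probe sets it was the lower for 7499 of 15922. Among those at least as bright as the middle tested gene it was the lower for 794 of 1162. The medians of these bright probe sets were 0.055 and -0.046 in ago4-1, so this order was also seen outside the complexes, with a smaller gap than in NDH. The remaining chloroplast genes did not show it. Replicate 2 was the lower for 9 of the 24 tested, and their medians were -0.18 and -0.16 in ago4-1. The part of signal level in the order within a complex was not tested. The NDH median depended on the array used, at -0.36 without ago4-1 replicate 1 and -0.095 without ago4-1 replicate 2. The ATP synthase median was -0.29 without ago4-1 replicate 1. The order of the complexes by median is therefore a description of these 4 arrays, and no test of the difference between complexes was made.

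**Figure D3:**
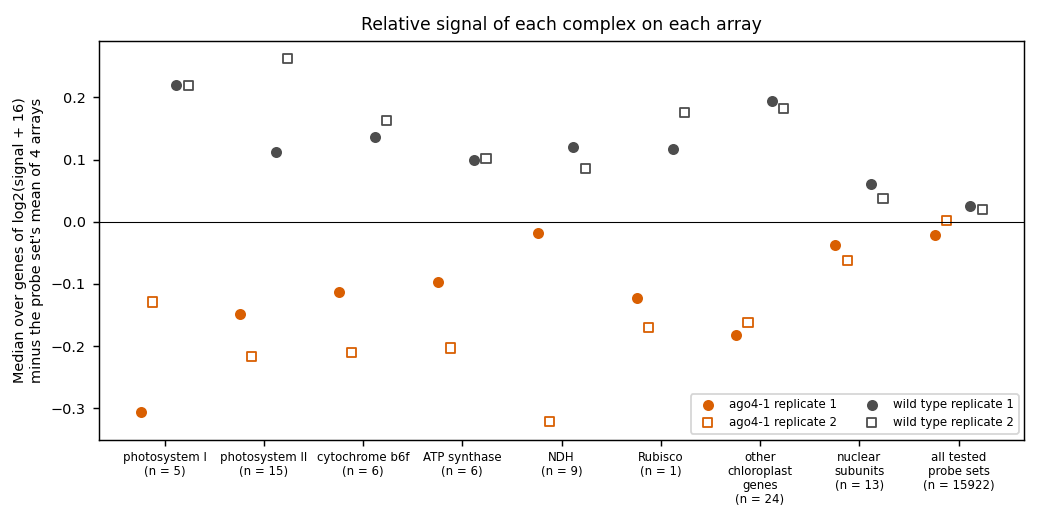
Median over genes of log2(signal + 16) relative to each probe set's mean of the 4 arrays, for each complex, the other chloroplast genes, the nuclear subunits and all tested probe sets, with ago4-1 in orange left of wild type in grey. In each of the 6 groups both ago4-1 medians lie below both wild-type medians; the 2 ago4-1 arrays are farthest apart for NDH, at -0.018 and -0.32.

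Along the transcription units, the differences spanned less in some units than in others. In the unit psbE-psbF-psbL-psbJ the 4 differences spanned 0.15, from -0.36 to -0.21, and in psbD-psbC-psbZ the 3 spanned 0.12, from -0.47 to -0.35. In psbB-psbT-psbH-petB-petD, which joins both photosystem II and cytochrome b6f genes, they ran from -0.62 to -0.21, with psbB, psbT and psbH all at or below -0.51 and petB and petD at -0.26 and -0.21. The widest span, 0.69, was that of ndhH-ndhA-ndhI-ndhG-ndhE-psaC-ndhD, in which ndhH alone of the 7 genes had an interval that did not cover 0. Whether the members of a unit differ was not tested.

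Signal level went with the size of the difference only weakly. Across the 42 genes, which share the same 4 arrays, the log2 difference and the mean log2 signal correlated at Pearson's r = 0.23 and Spearman's rho = 0.30. The 14 brightest genes, with mean signals from 5152 to 33821, had a median of -0.28, the 14 in the middle -0.37 and the 14 dimmest, with mean signals from 49 to 647, -0.40. Both ago4-1 arrays lay below both wild-type arrays for 12 of the bright, 13 of the middle and 8 of the dim genes, so the dim genes were the least clear, with a median SE of 0.25 beside 0.11 for the bright ones. Gene length showed no such relation (r = -0.043, rho = -0.017). There were 8 of the 43 genes among the 250 probe sets with the highest mean signal. Among the 1162 tested probe sets at least as bright as the middle gene of the 42, 26.9% had both ago4-1 arrays below both wild-type arrays and the median difference was 0.0016.

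**Figure D4:**
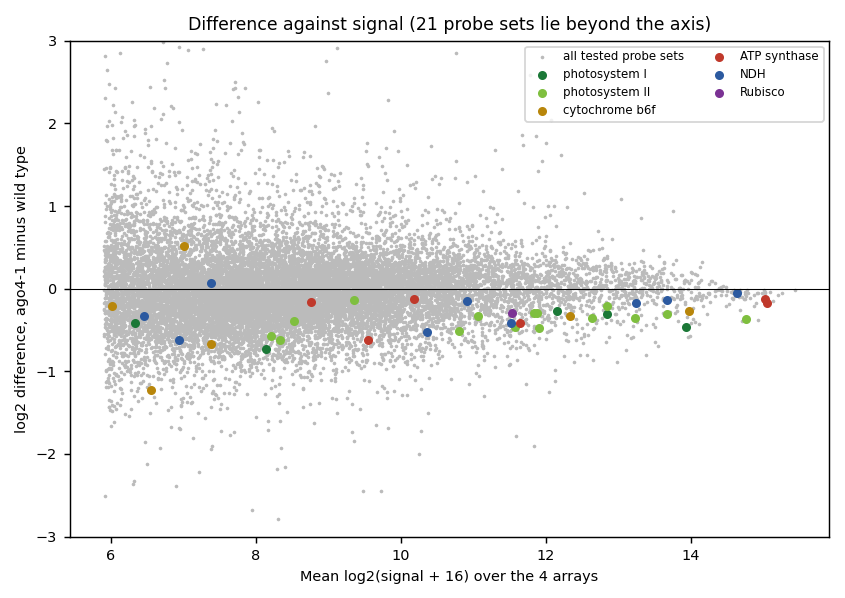
Log2 difference (ago4-1 minus wild type) against mean log2(signal + 16) for the 15922 tested probe sets in grey and the 42 genes in the colour of their complex; 21 probe sets beyond 3 log2 units are not drawn. All but petN and ndhE lie below 0, over the whole range of signal, with petG lowest and petN highest.

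The remaining chloroplast genes, which encode ribosomal proteins, RNA polymerase subunits and other proteins, had differences of similar size. Of 26 such genes 24 were tested. Both ago4-1 arrays lay below both wild-type arrays for 19 of the 24, where 29.2% of all tested probe sets did so. There were 23 of the 24 below 0, beside 54.3% of all tested probe sets, and the median of the 24 was -0.40. Of them 4 passed the threshold, where 1.92% of all tested probe sets passed with less signal in ago4-1, among them rps2, which lies beside atpI, at -0.67 (limma adjusted p = 0.0311, and 0.000253 to 0.144 over the alternatives, 7 of 13 of which kept the call). The shares that did not overlap, 78.6% of the photosynthesis genes and 79.2% of the others, were close to each other. At an unadjusted p under 0.05 with less signal in ago4-1 there were 15 of the 24, beside 20 of the 42 photosynthesis genes. Of all tested probe sets 11.4% were so. Whether both sets of chloroplast genes differ was not tested.

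Nuclear photosynthesis genes had a smaller median difference, -0.11, beside -0.33 for the 42 chloroplast genes. Most of the nuclear probe sets were bright, and this comparison was not matched for signal. The 14 brightest of the 42 chloroplast genes had a median of -0.28. The lists hold subunits of the same complexes, antenna proteins and Rubisco activase, so the leaf markers RCA and LHCB4.1 are among them. Of 65 such genes 13 were matched to a probe set by the annotation used, and these were tested. Of them 0 passed the threshold, and 2 had an unadjusted p under 0.05, where 20.4% of all tested probe sets did. There were 11 of 13 below 0, where 54.3% of all tested probe sets were. For 7 of 13 both ago4-1 arrays lay below both wild-type arrays, where 29.2% of all tested probe sets did so. The photosystem I subunit PSAN had the smallest p, at 16846 and 17625 in ago4-1, against 20311 and 22180 in wild type (log2 difference -0.30, limma adjusted p = 0.116). The cytochrome b6f subunit PETM was at 21879 and 20785 in ago4-1, against 25465 and 24091 in wild type, and the ATP synthase subunit ATPC1 at 20378 and 19426 in ago4-1, against 21443 and 21018 in wild type. In these 2 genes the genotypes did not overlap either, but the differences were -0.22 and -0.093. Whether nuclear and chloroplast genes of a complex differ in their response was not tested.

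Few genes for chloroplast transcription and RNA processing could be followed. Of 21 transcription genes 1 was matched to a probe set by the annotation used, RPOTmp, and it failed the filter. That annotation left 8730 probe sets unnamed, and the other genes may be among them. Of 14 RNA factors 4 were matched and 3 were tested, of which 1 passed. It was CRR28, an editing factor for ndh transcripts, which was lower in ago4-1 at 57.5 and 34.8, against 143 and 144 in wild type (log2 difference -1.39, limma adjusted p = 0.0497). That call held in 3 of the 12 alternatives that tested it, with adjusted p from 0.0014 to 0.142. The transcripts that it edits, ndhB and ndhD, stood at 0.31 and -0.15. CRR21, which edits ndhD, and LPA66, which edits psbF, were at -0.29 and -0.33 with limma adjusted p of 0.392 and 0.454.

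**Figure D5:**
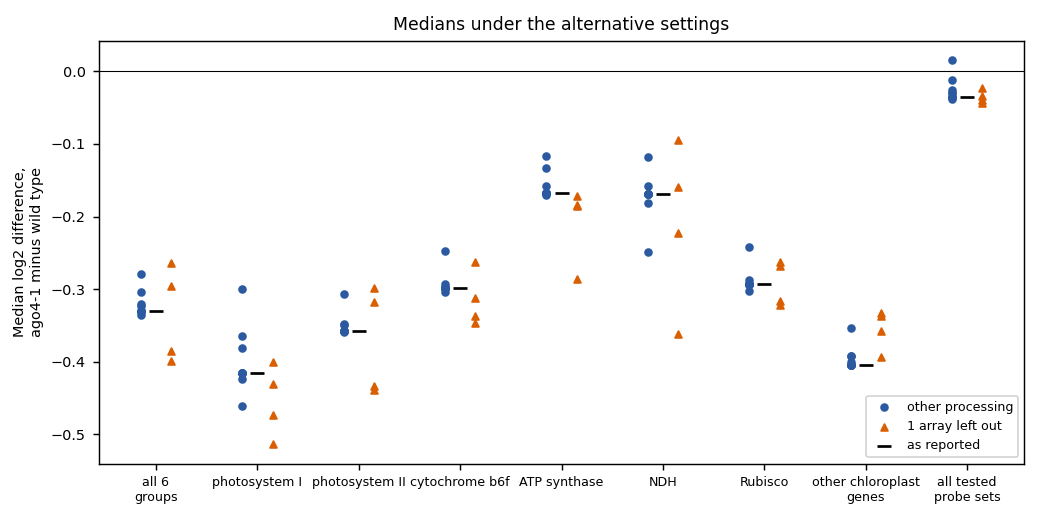
Median log2 difference (ago4-1 minus wild type) of the 42 genes, of each complex, of the other chloroplast genes and of all tested probe sets as reported (black bars), under other processing (blue circles) and with 1 array left out (orange triangles). Every median of the chloroplast genes stays below 0, while those of NDH range from -0.36 to -0.095.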

How the data were processed

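Total RNA of 2 ago4-1 and 2 wild-type samples was labelled with biotin by the standard Affymetrix protocol, per the labels' protocols. As background, that protocol usually copies RNA from its poly(A) tail, which most chloroplast transcripts lack in stable form; its effect here was not tested. The deposited values are linear intensity, 1 signal for each probe set and array. The submitters' processing notes name GCOS, with settings not given in the sources used here. The trimmed mean was 500.1 on each array, so no further scaling was applied.

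Of 22810 probe sets, 64 controls were left out. Of the rest, 13513 had 1 gene symbol, 503 several and 8730 are unnamed here, and 13436 matched RefSeq's gene table (TAIR10.1), used for names and gene order. Each of the 43 genes had 1 probe set. Values were taken as log2(signal + 16), probe sets under the 30th percentile of the mean over 4 arrays were left out, and ago4-1 was tested against wild type with limma (version 3.58.1, under R 4.3.3; variance trend, two-sided, Benjamini-Hochberg, threshold 0.05). Residual degrees of freedom were 2 and prior ones 6.72 (median). The procedure was tested on simulated data, drawn independently for each probe set and array from the variance model that limma had fitted. That run does not cover deviations that probe sets share on an array. Full values were given for the genes with the most negative and the most positive difference in each complex and for psbA and rbcL; further genes were given as examples. Of nuclear lists, called genes and up to 3 with the smallest p could be named. The genes, lists and transcription units, which come from general knowledge, were chosen with earlier results of these data known. Of 118 listed nuclear genes 25 were matched to a probe set with 1 symbol, and of the senescence list 0 of 5. The rest may be on the array among the probe sets that are unnamed here or have several symbols. Alternatives were other scalings, pseudocounts of 1 and 64, other filters, other moderation, a replicate block and each array left out.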

Additional observations from a re-analysis of the deposited data

How the results depend on the processing

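Of 13 alternatives, 9 also called 0 of the chloroplast-encoded photosynthesis genes, and 35 of the 42 tested genes stayed below 0 in each setting that tested them. With 1 array left out, 0 to 2 were called: psbI and petG without wild type replicate 1, psbM without ago4-1 replicate 1, and psaB and psaA without ago4-1 replicate 2. The lone array is then assumed to vary like the other genotype's. With an array left out, the number below 0 ran from 38 to 40 and the median over the genes from -0.40 to -0.26. By complex the medians ran from -0.51 to -0.40 (photosystem I), -0.44 to -0.30 (photosystem II), -0.35 to -0.26 (cytochrome b6f), -0.29 to -0.17 (ATP synthase), -0.36 to -0.095 (NDH) and -0.32 to -0.26 (Rubisco). With arrays centred on their medians, cytochrome b6f stood at -0.25 and Rubisco at -0.24, and 23 genes, in place of 33, had both ago4-1 arrays below both wild-type arrays, where 24.6% of all probe sets did. A pseudocount of 64 put photosystem I at -0.30 and photosystem II at -0.35, so that photosystem I no longer had the largest median.

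Over all probe sets 647 passed the threshold, and 140 with no low-signal filter, 93 with no variance trend, and, leaving arrays out, 280 to 1046. The lowest of these counts came without ago4-1 replicate 1 and the highest without ago4-1 replicate 2. Nothing in the labels ties arrays of the same number together, and with 2 numbers their deviations correlated at 0.17 across probe sets. With the replicate number as a block, which leaves 1 residual degree of freedom, 2409 probe sets and 16 of the 42 genes passed; the cause was not tested. The mean over several probe sets of a gene was not run, since each gene had 1. Signal near the lower end of the scale limits petD, petG, psaC, ndhG and ndhF.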
